A study of Homo sapiens with 4 samples.

Results

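In wild-type H1 human embryonic stem cells, 258 of the 9900 deposited m6A regions had their centre in the coding part of exon 1 of the annotated transcript. These regions were the rows whose deposited annotation was a coding exon and read exon 1 of n. In 152 of them the transcript had a single exon, so exon 1 was the whole of the transcript cited (single-exon regions), and in 106 the transcript went on to further exons (first-exon regions). All other regions of the 1913 in coding exons were centred in a last coding exon (1008 regions) or an internal one (647 regions). The study used m6A-seq, in which RNA carrying N6-methyladenosine is pulled down with an antibody and sequenced beside the RNA before pull-down. By the labels, total RNA of H1, an established embryonic stem cell line, was extracted with Trizol and gave 2 input libraries and 2 pull-down libraries. All 4 libraries were wild type and untreated apart from the antibody step, with an m6A antibody from Cell Signaling Technology. The deposited result was 1 set of positions on hg38 with no value per library, so a region was present or absent, no library could be left out, and intervals covered counting error over regions only.

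m6A is the most common internal modification of messenger RNA and is laid down by a nuclear complex around METTL3 and METTL14, mostly at the motif family DRACH. Exon junction complexes, deposited at splice junctions, keep the writer away from nearby sequence, so that methylation is known to concentrate in long internal exons, in last exons and around stop codons. A transcript without introns has no splice junction at all, and a long first coding exon has one at its 3' end only. Genes with such exons include many G-protein-coupled receptors, some SOX and JUN transcription factors and a few zinc finger proteins. The clustered protocadherins, whose extracellular domain is encoded by 1 large exon, are others.

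The sequences at the 5' edge of a few regions are given first because the edges turned out to gather a short way inside the annotated start of the transcript. Each is 30 bases of the gene's sense strand, read 5' to 3' from the RefSeq promoter table of GRCh38.p14, with the 15 bases inside the region in capitals. Such a window was read for 23 regions, 14 single-exon and 9 first-exon ones, whose edge lay just inside a start site that the table holds; the 9 shown were chosen after their values were seen, to cover both groups and both strands. The single-exon regions shown lie at SOX2 and SOX4, transcription factors of neural and stem cells, RNF26, an E3 ubiquitin ligase of the endoplasmic reticulum, HPDL, a mitochondrial enzyme, and IRF2BP1, a transcriptional corepressor.
SOX2: catggatggttgtctATTAACTTGTTCAAA
SOX4: gtctgctctaagctgCAGCAAGAGAAACTG
RNF26: ttgcacacaagatggCGGCGCCCAGCGGAG
HPDL: tctcacaaccagcagCTCGGCTCACTGAGA
IRF2BP1: gggcagaagaaggagGTGGAGGCGGCGGCG
The first-exon regions shown lie at the protocadherin PCDHA2, the signalling adaptor CRKL, the guanine nucleotide exchange factor DNMBP and the cell cycle factor E2F3.
PCDHA2: tgttacttcagagaaGCGGAGGAATAAGAG
CRKL: gcgcagacggagcgcGCTGAGCGGAGGGGG
DNMBP: actagagcaacgagaAGAGTGTCTGGAATG
E2F3: attcattgtcagcagCAGCTTCCTGGAGCC
In genome coordinates of GRCh38.p14 the SOX2 window is chr3:181711921-181711950 (plus strand), SOX4 chr6:21593747-21593776 (plus strand), RNF26 chr11:119334523-119334552 (plus strand), HPDL chr1:45326891-45326920 (plus strand) and IRF2BP1 chr19:45886114-45886143 (minus strand). The PCDHA2 window is chr5:140794848-140794877 (plus strand), CRKL chr22:20917405-20917434 (plus strand), DNMBP chr10:99930881-99930910 (minus strand) and E2F3 chr6:20401879-20401908 (plus strand). Each window lies at the start site, so its first bases may precede exon 1. The SOX2, SOX4, RNF26, HPDL and PCDHA2 regions began 11 bp after the start site, DNMBP 12 bp, IRF2BP1 and CRKL 13 bp, and E2F3 15 bp.

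The exon label was first set against a RefSeq gene table. Of the 152 single-exon regions, 114 were hosted by a gene with 1 RefSeq transcript, of which 3 had a gene body over 10 kb. The host's gene body was over 20 kb in 24 of the 152, of which 18 were clustered protocadherins, and for these the exon count is that of the transcript cited. In 35 the host had other transcripts too, and in 18 of these 35 it was an alpha or gamma protocadherin; 3 hosts were not in the table (PCDH7, ZBED6CL and KIAA0754, named here by the deposited annotation). For the alpha and gamma protocadherins the deposited annotation cited either a short unspliced transcript (exon 1 of 1) or the spliced one (exon 1 of 4) of a gene whose variable exon is the same. For these genes the 2 groups therefore differ in the transcript cited and not in the kind of exon. Among first-exon regions, 21 lay in transcripts of 2 exons, 33 in transcripts of 3 or 4, and 28 in transcripts of 10 or more, with a median of 4 exons and a maximum of 63 in MYO15B, an unconventional myosin gene.

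The rule took centres in coding sequence only. Regions labelled promoter or transcript end carry no exon number and are not in the counts that follow. Among regions labelled coding exon or UTR in exon 1 of 1 of a coding transcript, 152 of 187 were coding (81.3%, exact 95% interval 74.9 to 86.6%), 29 were in the 3' UTR (15.5%, 10.6 to 21.5%) and 6 in the 5' UTR (3.21%). Among those in exon 1 of 2 or more, 106 of 156 were coding (67.9%, 60 to 75.2%), 48 were in the 5' UTR (30.8%, 23.6 to 38.6%) and 2 in the 3' UTR (1.28%). Among these labels, the regions left out by the rule were thus mostly on the 3' side in intronless transcripts and on the 5' side in spliced ones.

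The median width of the 258 regions was 1599 bp (95% interval 1412 to 1765), near the 1527 bp of all 9900 regions. Without the clustered protocadherins it was 1412.5 bp (1270 to 1599). The median was 1343.5 bp (1294 to 1395) for all regions in last coding exons and 1293 bp (1244 to 1359) for internal ones. In single-exon transcripts the width ran from 482 to 34758 bp with a median of 1624.5 bp (1450 to 1844). In first exons it ran from 713 to 5953 bp with a median of 1460.5 bp (1175 to 1774). The ranges and intervals of the 2 groups overlapped, and the quartiles were 1186 and 2252.5 bp for single-exon and 1018.5 and 2304.5 bp for first-exon regions.

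**Figure D1:**
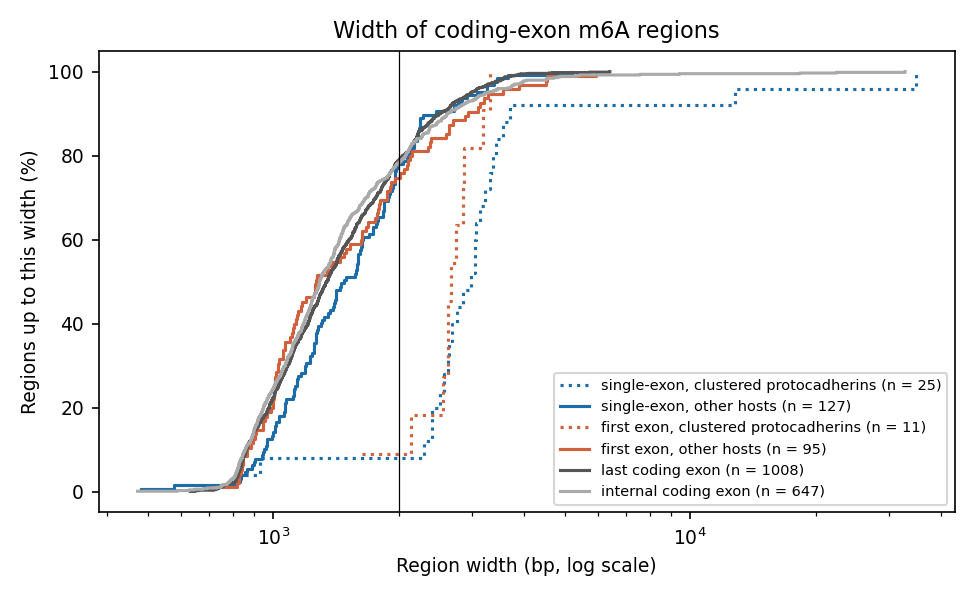
Cumulative share of regions (y axis, %) up to a given width (x axis, bp, log scale), with 1 curve each for single-exon and first-exon regions of other hosts, for those of clustered protocadherins (dotted), and for last and internal coding exons; the vertical line marks 2 kb. The protocadherin curves lie to the right of the rest, with 23 of 25 single-exon and 10 of 11 first-exon regions over 2 kb, against 28 of 127 and 24 of 95 for other hosts.

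Regions over 2 kb made up 51 of 152 single-exon regions (33.6%) and 34 of 106 first-exon regions (32.1%). The difference was 1.48 percentage points, with a 95% interval from -10.2 to 12.8 points, and did not pass the test (Fisher's exact test, two-sided, adjusted p = 0.893 over 11 tests). Together 85 of 258 were over 2 kb (32.9%), against 213 of 1008 in last exons (21.1%, adjusted p = 2.90e-04) and 141 of 647 in internal exons (21.8%, adjusted p = 0.00142), both by Fisher's exact test. Over all 9900 regions, introns and intergenic ones included, the share over 2 kb was 37.2%. The excess over other coding exons rested on the clustered protocadherins: without their 36 regions the share was 52 of 222 (23.4%), 2.29 points above last exons and 1.63 above internal ones, both with an adjusted p of 0.704 in Fisher's exact test. The excess over internal exons also lost its call when wide meant over 3 kb (Fisher's exact test, adjusted p = 0.0698), and both lost it among hosts with 1 RefSeq transcript.

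The widest single-exon regions after 2 protocadherin ones included the 5203-bp and 3648-bp regions of ZNF469, a very large zinc finger gene linked to the cornea. The others were those of PCDHA9 (3691 bp), PCDHB7 (3557 bp), PCDH10 (3434 bp), PCDHGB2 (3417 bp), SOX4 (3379 bp) and PCDHGA4 (3357 bp). Among the narrowest were those of KCNF1 (837 bp), a modulatory potassium channel subunit, EID3 (834 bp), the neuronal adhesion gene SLITRK1 (577 bp) and the membrane receptor gene PAQR9 (482 bp). Among first exons the widest regions belonged to the insulin receptor substrates IRS2 (5953 bp) and IRS1 (4519 bp), with SMCR8, an autophagy regulator, between them (4547 bp). The atypical cadherin FAT4 (3884 bp), WDR81 (3563 bp), PCDHA3 (3312 bp), CELSR3 (3268 bp), CELSR2 (3205 bp), PCDHA4 (3186 bp) and TSC22D1 (3129 bp) followed. The narrowest were in CHSY3 (839 bp), MYO15B (827 bp), GZF1 (826 bp), ADAMTS8 (818 bp) and SCAND3 (713 bp). The wide ends of both lists thus held cadherin-superfamily genes, and the first-exon list held receptor adaptors as well.

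The 5' edge of a region could be placed on its own transcript where the nearest annotated start site was that of the host transcript, in 138 of 152 single-exon and 81 of 106 first-exon regions. The median edge lay 168.5 bp (119 to 269) downstream of the start site in single-exon transcripts and 89 bp (29 to 142) downstream in first exons. Edges fell most often 10 to 19 bp after the start, where 21 of 219 were found, 11 single-exon and 10 first-exon. The next fullest 10-bp bin held 7, and the bins between 100 and 200 bp held a median of 3. Exactly 11 bp after the start there were 9 edges, those of SOX2, SOX4, RNF26, HPDL and PCDHA2 among them, and 21 of 219 (9.59%) lay 9 to 15 bp after it. The annotated start site was within 2 bp of the gene's boundary in the RefSeq table in 143 of the 219, and 19 of the 21 edges in the 10 to 19 bp bin were among these. Since the pile-up was noticed in these data, no test is given for it.

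**Figure D2:**
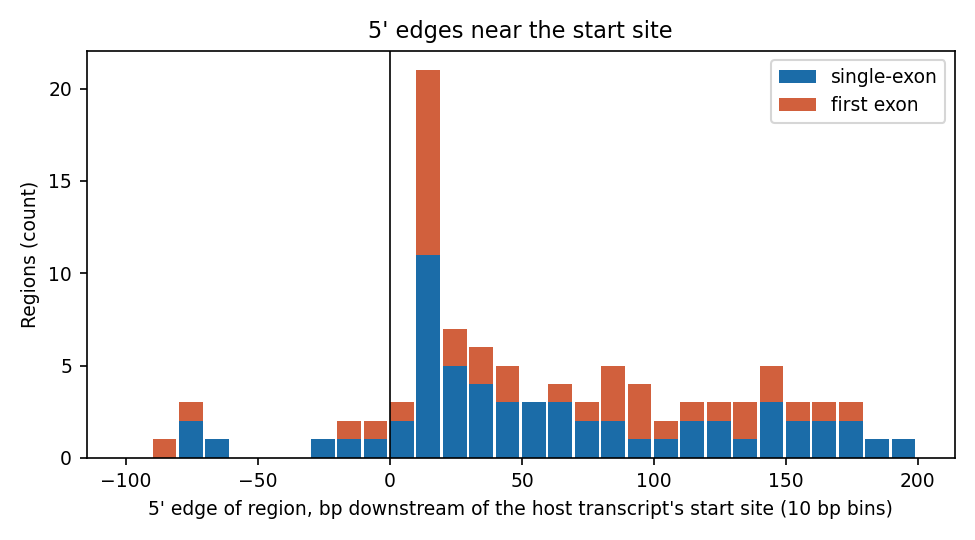
Number of regions (y axis, count) by distance in bp of the 5' edge from the host transcript's annotated start site (x axis, 10-bp bins, positive values downstream; edges farther away are not drawn), with single-exon and first-exon regions stacked. The bin from 10 to 19 bp holds 21 regions, 11 single-exon and 10 first-exon, and no other bin drawn holds more than 7.

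A 5' edge within 50 bp of the start site was seen in 28 of 138 single-exon (20.3%) and 19 of 81 first-exon regions (23.5%), a difference of -3.17 points (-15 to 7.7; Fisher's exact test, adjusted p = 0.747). The region began upstream of the start in 20 of 138 (14.5%) and 19 of 81 (23.5%), a difference of -8.96 points (-20.4 to 1.48; Fisher's exact test, adjusted p = 0.188). This comparison depended on the protocadherins: of their placed edges 15 of 23 were upstream (65.2%), against 24 of 196 for all other members (12.2%). Without them the shares were 8 of 120 (6.67%) and 16 of 76 (21.1%), a difference of -14.4 points that passed Fisher's exact test (adjusted p = 0.00999). That call did not hold under the stricter counts below, which kept the direction but left fewer edges. Whether the start site or the smaller counts lost the call was not tested. Of the 39 upstream edges 24 also lay past a boundary of the host gene in the RefSeq table, and the others lay inside the gene. Counting only edges past a boundary too, the protocadherins left out, gave 3 of 120 (2.5%) and 8 of 76 (10.5%), a difference of -8.03 points (Fisher's exact test, adjusted p = 0.0676). With start sites within 2 bp of the gene's boundary only, again without protocadherins, 2 of 88 (2.27%) and 5 of 43 (11.6%) began upstream, a difference of -9.36 points (Fisher's exact test, adjusted p = 0.105). IRS2 was upstream by both sources, with its edge at -1422 bp from the start site. The edge of the Frizzled receptor gene FZD7 lay at -696 bp from the annotated start site but 36 bp inside the gene of the RefSeq table. At the other end, edges over 500 bp into the transcript were found in 39 single-exon (28.3%) and 13 first-exon regions (16%).

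A region ran past a boundary of its host gene in 23 of 149 single-exon (15.4%) and 15 of 106 first-exon regions (14.2%), a difference of 1.29 points (-8.02 to 9.85; Fisher's exact test, adjusted p = 0.893). Either boundary was counted, and the boundary of the RefSeq table was not always the annotated start site. An example chosen after its values were seen was the HEXIM1 region. It began 543 bp after the annotated start site but 614 bp before the gene's 5' boundary. The share of all members, 38 of 255 (14.9%), was above that of last exons (10 of 1002, 0.998%, adjusted p = 2.42e-18), which can adjoin the gene's 3' boundary, and of internal exons (1 of 645, 0.155%, adjusted p = 6.04e-20, both Fisher's exact test), which adjoin neither. Without the clustered protocadherins the share of members was 14 of 219 (6.39%), and the differences from last and internal exons were 5.39 points (adjusted p = 3.22e-05) and 6.24 points (adjusted p = 2.10e-07) by Fisher's exact test. In that set the order of the groups turned, with 5 of 124 single-exon (4.03%) and 9 of 95 first-exon regions (9.47%) past a boundary (Fisher's exact test, adjusted p = 0.296). Exon 1 lies at or near the gene's 5' end. The definition of the groups therefore favours the differences from last and internal exons, and nothing is read from their p values.

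For genes with no intron the gene body is the transcript, so the region could be placed along it. This held for 91 single-exon regions whose host had 1 RefSeq transcript starting within 2 bp of the gene boundary; gene lengths ran from 1098 to 11511 bp with a median of 3027 bp. The region covered a median of 56.4% of the gene (45.3 to 62.3%), from 8.76 to 100%. With the gene cut into 3 equal parts, the centre lay in the 5' part in 39 (42.9%, 32.5 to 53.7%), in the middle part in 47 (51.6%, 40.9 to 62.3%) and in the 3' part in 5 (5.49%, 1.81 to 12.4%). Since the rule asks for a coding centre, it removes centres in long 3' UTRs. With UTR-centred regions of intronless transcripts included, the 3' part held 11 of 113 (9.73%), the 5' part 48 and the middle part 54. Regions labelled promoter or transcript end were still left out, so the share of centres near either end of the gene is not settled. The 3' edge stopped a median of 982 bp short of the gene's end, and 10 of 91 regions ended within 200 bp of it.

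**Figure D3:**
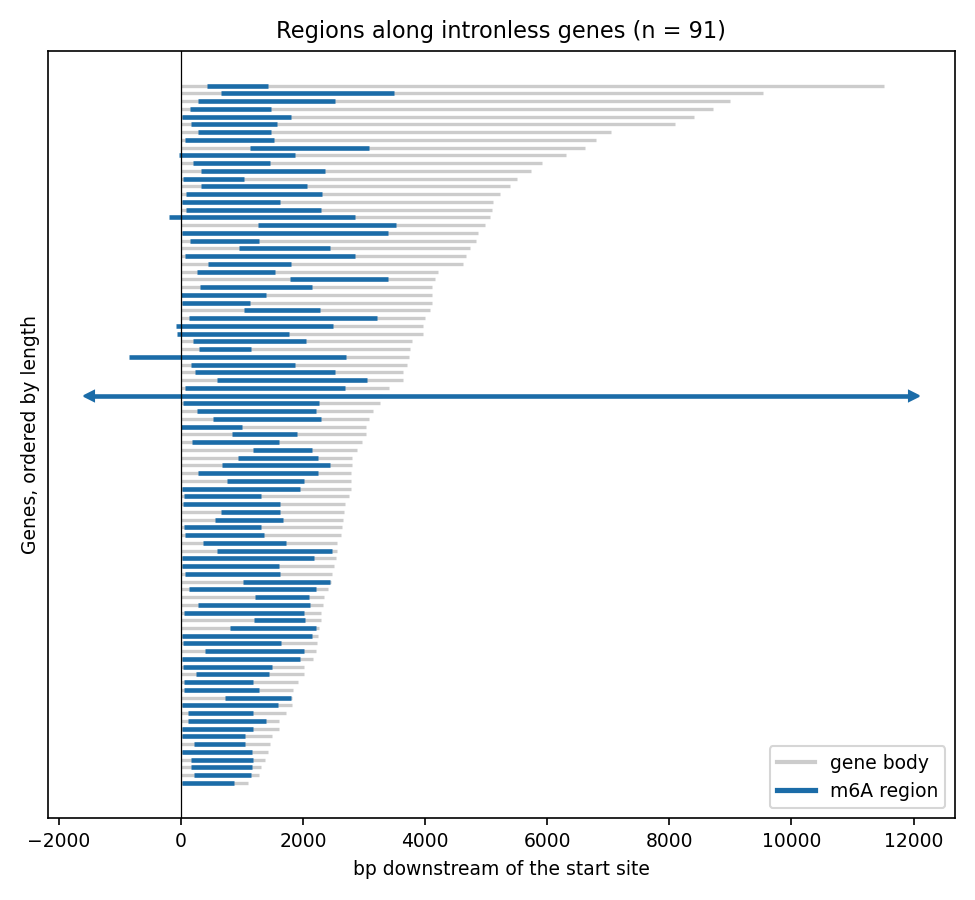
Stretch covered by each of the 91 regions (blue) along its intronless gene (grey), in bp downstream of the start site (x axis), with 1 line per gene ordered by gene length and the longest at the top; the line with arrows is the region of PCDHB10, which runs off both sides. In genes up to 2500 bp the regions cover a median of 72.3% of the gene, and in genes over 4000 bp a median of 29.9%.

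Width grew less than gene length. In 28 genes up to 2500 bp long the median width was 1210 bp, covering 72.3% of the gene and ending 232 bp before its end. In 33 genes of 2500 to 4000 bp it was 1765 bp, 57.5% and 982 bp, and in 30 genes over 4000 bp it was 1598 bp, 29.9% and 3342 bp. Across the 91 genes, which share 1 peak set and are not replicates, Spearman's rho between width and length was 0.38. The examples that follow were chosen after their values were seen. The region of the selenium-metabolism gene SEPHS2 covered 95.5% of its 2244-bp transcript, from base 13 to base 2155. Regions of the tight-junction gene CLDN23 (89.4%), the growth-related secreted factor FJX1 (87%) and HPDL (87%) likewise spanned nearly the whole gene. In contrast, the 1009-bp region of PURA, a nucleic acid-binding protein needed in neurons, covered 8.76% of an 11511-bp gene, that of the RNA-binding gene HNRNPA0 15.2%, that of the GPI-anchor enzyme gene PIGM 16.9% and that of EPM2AIP1 17.3%. All 4 began in the 5' part, and their genes ran on far beyond the region. The Frizzled receptor gene FZD9 and the channel gene KCNF1 were among the 5 with a centre in the 3' part, at 0.708 and 0.707 of the gene's length.

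The clustered protocadherins formed the largest block of hosts. These cadherin-like adhesion proteins give neurons individual surface identities; in the alpha and gamma clusters each variable first exon is spliced to shared constant exons, and beta genes are intronless. A region centred in exon 1 was found for 36 of 53 members, 25 single-exon and 11 first-exon, which made up 36 of the 258 regions. Over all 20056 protein-coding genes, 1.26% hosted such a region (0.738% a single-exon one and 0.519% a first-exon one), and 13.4% hosted a region in any exon or at a transcript end; both shares stand as the background for the family counts that follow. The count by cluster was 12 of 15 alpha, 7 of 16 beta and 17 of 22 gamma genes. Those clusters lie on chromosome 5, which held 29 of 152 single-exon (19.1%) and 14 of 106 first-exon regions (13.2%) against 5.51% of all regions.

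**Figure D4:**
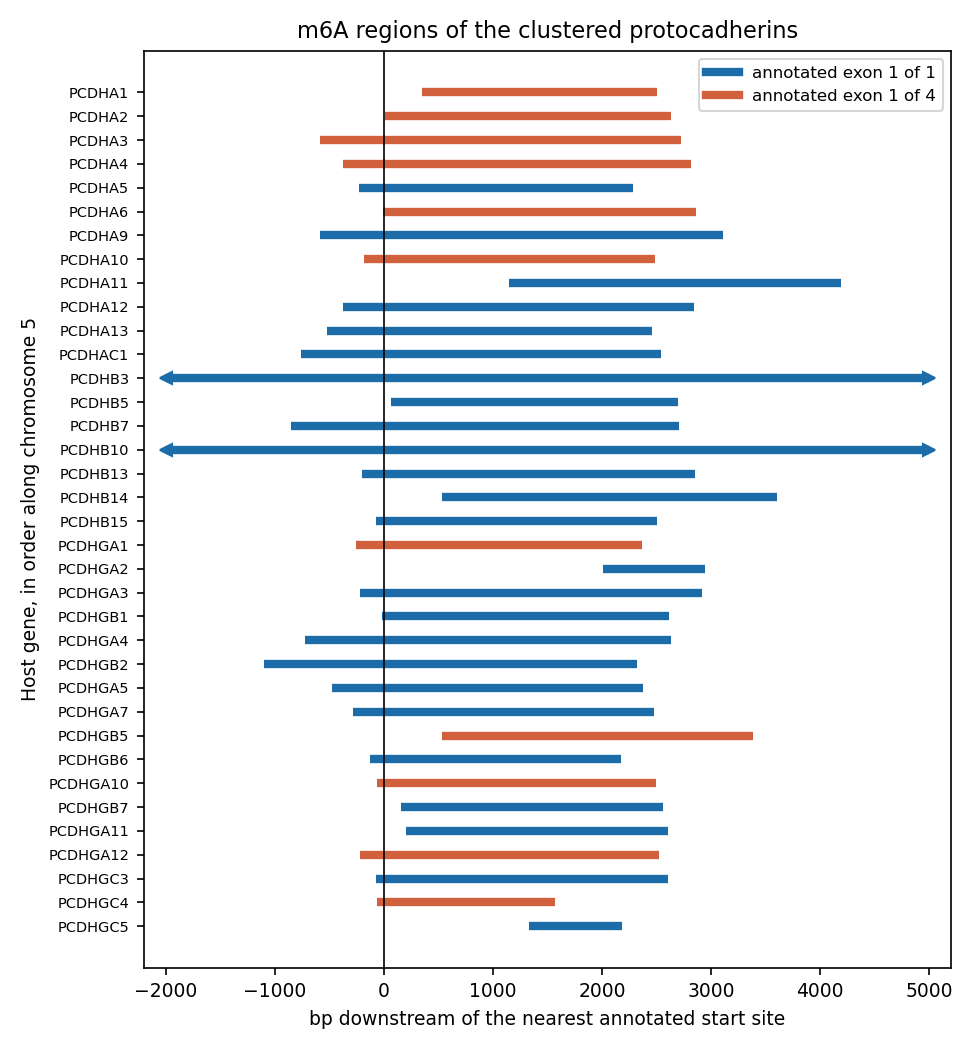
Each clustered protocadherin region drawn from its 5' to its 3' edge in bp downstream of the nearest annotated start site (x axis), with 1 bar per host gene in order along chromosome 5, blue where the annotation read exon 1 of 1 and orange where it read exon 1 of 4. Apart from the regions of PCDHB3 and PCDHB10, which run off both sides (arrows), 24 of 34 end between 2300 and 2900 bp after the start site.

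Protocadherin regions had a median width of 2804.5 bp (2625 to 3072), and 33 of 36 were over 2 kb (91.7%), against 1412.5 bp (1270 to 1599) and 52 of 222 (23.4%) for the other members. The intervals of the label groups overlapped: the median was 2984 bp (2630 to 3220) for the 25 called single-exon and 2674 bp (2146 to 3186) for the 11 called first exon. Alpha regions ran from 2146 to 3691 bp (median 3017), beta from 2574 to 34758 bp (median 3072) and gamma from 854 to 3417 bp (median 2635). Of the 34 regions up to 5 kb wide, 24 ended 2300 to 2900 bp after the nearest start site, with a median 3' edge at 2605 bp. The narrow exceptions were all gamma genes, PCDHGC5 (854 bp), PCDHGA2 (931 bp) and PCDHGC4 (1632 bp). Members without such a region were PCDHA7, PCDHA8 and PCDHAC2 among the alpha genes, and PCDHGA6, PCDHGA8, PCDHGA9, PCDHGB3 and PCDHGB4 among the gamma genes.

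A pair of beta regions spanned several genes. The region named for PCDHB10 was chr5:141176672-141211429, 34758 bp wide, and met 6 protein-coding genes (PCDHB8, PCDHB16, PCDHB9, PCDHB10, PCDHB11 and PCDHB12), 5 of them wholly inside it. The region named for PCDHB3 was chr5:141094634-141107463, 12830 bp wide, and met PCDHB2 and PCDHB3. The centre of a region decides its host, so the count of 7 beta genes leaves out neighbours covered by these regions; PCDHB1, PCDHB4 and PCDHB6 were the beta genes met by none of the member regions. The paralogs are close in sequence, and the treatment of multiply aligned reads is not given, so the share of reads that belongs to each member is uncertain.

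Outside the clusters, other cadherins had regions in first exons. PCDH10 (single-exon, 3434 bp) and PCDH18 (first exon, 2637 bp) were the 2 of 13 listed non-clustered protocadherins with one among hosts matched to the gene table. Of 9 listed giant cadherins, FAT4 and the planar polarity receptors CELSR1, CELSR2 and CELSR3 (4 genes) had one, all in a first exon that encodes extracellular cadherin repeats. PCDH7, a further non-clustered protocadherin that the match missed and the count leaves out, had a 1989-bp single-exon region at chr4:30722482-30724470.

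Among receptors, 6 of 125 listed G-protein-coupled receptor genes had a region. Among them were the ATP receptor P2RY1 (1894 bp), the serotonin receptors HTR1D (1846 bp) and HTR1B (1254 bp), the adrenergic receptor ADRA2B (1700 bp), and GPR37 (1629 bp), the only first-exon one of the 6. Frizzled receptors, which bind WNT ligands, had 4 of 10, namely FZD7 (2915 bp), FZD2 (1844 bp), FZD8 (1272 bp) and FZD9 (890 bp), and 7 of 10 had an exonic region of any kind, where the share over all genes was 13.4%. Olfactory receptors, a large family with intronless coding regions, had 1 of 392, the 943-bp region of OR2A5. Downstream of receptors, all 3 insulin receptor substrates had one, IRS2 and IRS1 in the first exon and IRS4 in a single exon (1736 bp). Potassium channels had 1 of 83 (KCNF1), near the 1.26% of all genes, and 21 had an exonic region of some kind. Which of these genes the cells transcribe is not given by a set of positions, and its part in these counts was not tested.

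Among transcription factors, 4 of 19 listed SOX genes had a single-exon region: SOX4 (3379 bp), SOX11 (2249 bp), the pluripotency factor SOX2 (1599 bp) and SOX14 (1194 bp). JUN, a subunit of AP-1, was the only one of 31 immediate early genes with such a region (2220 bp), although 9 had an exonic region somewhere. POU3F1 was the only one of 15 POU genes (1412 bp). FOX genes had 0 of 52 (8 with any exonic region), HOX genes 0 of 39 and the listed bHLH genes 0 of 22. Zinc finger genes named ZNF had 5 of 509, ZNF469, ZNF865 (1957 bp), ZNF407 (1383 bp), ZNF608 (1197 bp) and ZNF217 (846 bp), while 302 of the 509 had an exonic region of some kind (13.4% over all genes). The ZBTB and related list had 3 of 73, ZXDB (2232 bp), ZBTB18 (1629 bp) and ZBTB42 (902 bp), and 39 with any exonic region. In both zinc finger lists most genes with an exonic region had it outside the coding part of exon 1.

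Other groups with regions were ubiquitin-ligase adaptors of the KLHL and KBTBD kind, with 5 of 46: KLHL34 (2287 bp), KBTBD6 (2221 bp), KLHL9 (2046 bp), KBTBD7 (1495 bp) and, in a first exon, KLHL42 (1000 bp). Of the 8 listed genes of the m6A writer complex itself, 2 had one. They were the paralogs RBM15, in a first exon (chr1:110339446-110342384, 2939 bp), and RBM15B, in a single exon (chr3:51392413-51394368, 1956 bp), which recruit the complex to RNA. PUR genes had 2 of 3, IRS genes 3 of 3, and the retrotransposon-derived RTL and PNMA genes 2 of 22, PNMA8B (2782 bp) and the neuronal capsid gene ARC (1755 bp). HSP70 and related chaperones had 1 of 14 (HSPA2, 1124 bp), chromatin regulators 1 of 15 (ARID1A, 1632 bp) and MAGE genes 1 of 35. The list of leucine-rich-repeat membrane proteins had 2 of 26 (NRARP, 1270 bp, and SLITRK1). NRARP is an ankyrin-repeat protein inside the cell, so of these 2 only SLITRK1 is of the kind the list names. No region of this kind was found in 94 keratin-associated protein genes, 20 interferon genes or 7 SPRY and SPRED genes, though 4 of these 7 had another exonic region. No list was tested. The listed families held 90 of the 258 regions.

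Some paralogs fell on either side of the division; these pairs were chosen after their values were seen. GSPT1, a translation termination factor with 15 exons, had a 1000-bp region in its first exon, and its intronless paralog GSPT2 a 1967-bp one. DCAF12L1 (first exon, 1803 bp) and DCAF12L2 (single-exon, 1266 bp) were a further pair, beside RBM15 with RBM15B and IRS1 and IRS2 with IRS4. The spliced copy had the wider region for RBM15, DCAF12L1 and both IRS genes, and the intronless copy had it for GSPT2. Within a group, the transcription kinases CDK12 (1692 bp) and CDK13 (2388 bp) both had a first-exon region, and the nucleosome assembly genes NAP1L2 (1356 bp), NAP1L3 (1115 bp) and NAP1L5 (1143 bp) and the ankyrin genes SOWAHB (3081 bp), SOWAHC (1365 bp) and SOWAHD (1282 bp) single-exon ones.

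A host with more than 1 member region was rare: ZNF469 in the single-exon group and FAT4 and TCF20 in the first-exon group. ZNF469 had chr16:88429874-88433521 and chr16:88434358-88439560, 836 bp apart. FAT4 had chr4:125315072-125318955 (3884 bp) and chr4:125319968-125321498 (1531 bp), 1012 bp apart. In TCF20, a transcriptional coregulator, chr22:42209695-42210701 (1007 bp) and chr22:42211526-42212869 (1344 bp) lay 824 bp apart. Both centres of each pair lay in the same exon.

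First-exon hosts often held a further exonic region with another kind of label. Counted were coding exons outside the host's own group, UTRs, non-coding exons and transcript ends. Intronic and promoter regions and a second region of the host's own group were not counted. This held for last-exon and internal-exon hosts too. A counted region was held by 32 of 104 first-exon hosts (30.8%) and 2 of 148 single-exon hosts (1.35%). The difference was -29.4 points (-38.9 to -20.7, Fisher's exact test, adjusted p = 1.80e-11). An intronless transcript has no other exon in which a further region could lie, so the definition of the groups limits 1 of the shares and nothing is read from this p. The 2 single-exon hosts, ADRA2B and P2RY1, had a second region in the 3' UTR of the same exon. Of the 32 first-exon hosts, 28 had a further region in the last coding exon, the 3' UTR or the transcript end. In PCDHA4 and PCDHA10, counted among the 28, it was the 3' UTR of the short unspliced transcript and not the far end of the spliced one. In ARID1A, a subunit of the BAF remodelling complex, it lay in exon 20 of 20, in the protease genes ADAMTS1 and ADAMTS8 in exon 9 of 9, and in CELSR1, CELSR2 and IRS2 in the 3' UTR. ONECUT2, a homeobox factor, had 2 further regions in its 3' UTR, RBM15 had 1 at its transcript end, and SIX4 had 1 in exon 2 and 1 in exon 3. FAT4 had regions in exons 5, 9 and 17 of 17 beside the pair in its first exon. The genes of this paragraph outside the listed families were chosen after their values were seen. All members together had a further region in 34 of 252 hosts (13.5%), against 99 of 985 hosts of last-exon regions (10.1%, adjusted p = 0.216) and 101 of 594 of internal ones (17%, adjusted p = 0.301), neither of which passed Fisher's exact test. The pooled share mixes first-exon hosts (30.8%) with single-exon ones (1.35%), for which the definition limits it. Nothing is read from these tests either, and they do not show that members resemble the other hosts.

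Promoter sequence was compared as a description, over the 250 bp before the start site, for 115 of 148 single-exon and 81 of 104 first-exon hosts found in the table. The median GC content was 62% (58.8 to 63.6%) for single-exon hosts, 66.4% (63.6 to 69.2%) for first-exon hosts and 62.4% over 15843 protein-coding genes. It was 64.6% (63.6 to 65.6%) for hosts of last-exon regions and 66.4% (65.2 to 68%) for internal ones. The first-exon value was thus not particular to that group. A ratio of observed to expected CG dinucleotides above 0.6 was found in 81.7% of single-exon and 74.1% of first-exon promoters, against 63.4% over all genes, 79.7% for hosts of last-exon regions and 80.1% for internal ones. In the 50 bases from the start site, the letters GGACT on the sense strand, 1 form of the DRACH motif, were found in 5 single-exon (4.35%) and 5 first-exon hosts (6.17%), and in 4.81% of all genes. Hosts of last-exon regions had them in 3.34% and hosts of internal ones in 5.28%. The window is far shorter than the regions and says nothing of the rest of the exon.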

How the data were processed

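The data are m6A-seq of H1 cells, 2 input and 2 pull-down libraries. The authors deposited 1 intersected set of 9900 peak positions with an hg38 HOMER annotation, in base pairs; per the deposited file the peak score was 0 throughout. Per the submitters' processing notes, which give no order, MACS2 2.2.7.1, HISAT2 2.2.1, HOMER, Trim Galore 0.6.7, bedtools 2.30.0 and SAMtools 1.6 were used; the sets intersected, the depth and the settings are not stated in the sources used here. Labels do not say whether replicates were separate cultures.

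Regions were selected by annotation text, and 255 of 258 hosts matched a RefSeq table of GRCh38.p14. Shares were compared by two-sided Fisher's exact tests (scipy 1.17.1, Python 3.11.15), Benjamini-Hochberg adjusted over 11 tests with a threshold of 0.05, with exact Clopper-Pearson intervals, order-statistic intervals for medians and Newcombe intervals for differences; regions are not replicates. The function was tested on simulated data. The 5' edge was the deposited distance to the start site less the region's width to its centre; its tests and their alternatives were added after the data were seen. Members and gene lists were chosen with earlier results of these data known. Named were genes with 2 or more member regions, the 10 widest and 5 narrowest regions per group and up to 5 members per list, widest first; others are marked as chosen after their values were seen. Some genes under the rule are not reported here. Alternatives changed the width threshold, the boundary margin, the start site used and the genes included.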

Additional observations from a re-analysis of the deposited data

How the results depend on the processing

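Of 66 repeated values, 55 kept their direction and their side of the threshold, 5 reversed, 5 lost and 1 gained a call. Without the clustered protocadherins, the single-exon minus first-exon difference was -3.22 points for width over 2 kb and -5.44 for regions past a boundary, both reversed and neither called before or after; the members' excess over 2 kb fell to 2.29 points above last exons and 1.63 above internal ones, and the deficit of upstream 5' edges in single-exon transcripts reached -14.4 points and a call, which did not hold with start sites at the gene's boundary (-9.36). With wide meaning over 3 kb, the excess over internal exons was 4.67 points (adjusted p = 0.0698, Fisher's exact test). With hosts of 1 RefSeq transcript only, an alternative chosen after seeing the data that left 20 first-exon regions, these values were -10.4 points for width and -11.2 for boundaries between the groups, 7.12 and 3.73 for width against last and internal exons, and -0.917 for a further region against last-exon hosts. The cause was not tested. The planned tests of a CpG island or repeat at the centre were not run, because the detailed annotation repeated the exon label in 258 of 258 regions. No paired analysis was possible because 1 intersected set stands for all 4 libraries; for the same reason no replicate could be left out, and depth per library is unknown.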

Other observations

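Some intronless genes had a region centred in a UTR and so fell outside the rule; these were chosen after their values were seen. The 2595-bp region of EID2B, a repressor of differentiation genes, covered all of its 1866-bp gene, and the 4807-bp region of KLHDC7A covered 95.3% of 5045 bp. The 3457-bp region of B3GALT6, an enzyme of glycosaminoglycan linkers, ended at base 3860, beyond the end of its 2805-bp gene. CCDC8, a subunit of the 3M complex, had a 5' UTR-centred and a 3' UTR-centred region.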
